A study of Mus musculus with 9 samples.

Results

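The genes of fatty acid synthesis, elongation and desaturation, 10 of the 57180 genes in the deposited table, were followed in hippocampus of mice lacking Slc38a3 in endothelial cells. The set was chosen by enzyme name, from rows whose gene name was Acly, Acaca, Fasn, Me1, Elovl5, Elovl6, Scd1, Scd2, Fads1 or Fads2, and it was proposed with the genotype difference of these data, Scd1 among it, already known. The genotype values of the 10 genes are therefore a description, and nothing is supported by them. The sex difference did not take part in the choice. All 10 genes reached a mean of 10 normalized counts over the 9 libraries, the minimum for a test, as did 17036 genes in all.

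Fatty acids are made in the cytosol from citrate that leaves the mitochondrion. ATP citrate lyase turns it into acetyl-CoA, acetyl-CoA carboxylase makes malonyl-CoA, and fatty acid synthase assembles palmitate with NADPH that malic enzyme helps to supply. Elongases then lengthen the chain and desaturases add double bonds, which sets the fluidity of membranes. In the postnatal brain these steps feed the growth of myelin and of the membranes of neurons and glia. Most of the genes are known targets of the SREBP transcription factors, which also drive the genes of cholesterol synthesis.

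RNA-seq was run on whole hippocampus of C57BL6 mice aged 11 days. The knockout group, Slc38a3 cKO (cKO), lacked the glutamine transporter SNAT3 selectively in the endothelium and held 3 males (replicates 1, 3 and 4) and 1 female (replicate 2). The wild-type group (WT) held 1 male (replicate 1) and 4 females (replicates 2 to 5). No source used here names the Cre driver, the deleted exons or the litters. P-values therefore refer to the spread among these 9 samples, part of which may be technical. Values are normalized counts, read counts per gene that the authors divided by a size factor for each library. They compare libraries, while genes were compared with each other only per kilobase of exon.

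The cKO libraries held 32096409 to 34034530 recovered reads and the WT libraries 30803135 to 33134405. After the authors' normalization the totals were 31915313 to 32349505 in cKO and 32404543 to 33123134 in WT. Every cKO total thus lay below every WT total, and normalized counts given below were not rescaled to equal totals. Slc38a3 itself lay between 308 and 405 normalized counts in cKO and between 1804 and 3514 in WT, a log2 fold change of -2.99 ± 0.22 (SE; limma adjusted p = 5.54e-05). All 12 hippocampal neuron markers passed the minimum. Choroid plexus markers summed to between 704 and 33912 normalized counts in cKO and between 697 and 44807 in WT, so these sums differed widely within both groups.

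All 10 genes had a fitted cKO level below WT. The median log2 fold change of the 10 genes was -0.15, against -0.0034 over the 17036 genes tested, of which 8715 lay below 0. In the limma fit with sex and genotype as terms, 3 of the 10 genes were called lower in cKO at an adjusted p under 0.05 (Scd1, Acaca and Acly), 0 were called higher and 7 were not called. Over all genes tested, 38 were called lower, which is 0.223%. Without regard to the fit, every cKO library lay below every WT library for 6 of the 10 genes (Acly, Acaca, Elovl5, Elovl6, Scd1 and Scd2), where 3.72% of all genes tested did so. An unadjusted p under 0.05 with a lower cKO level was met by 6 of the 10, against a background of 6.4%. Since these genes were proposed with this contrast known, nothing is read from those shares. In whole tissue, fewer cells of a type and less RNA per cell cannot be told apart.

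**Figure D1:**
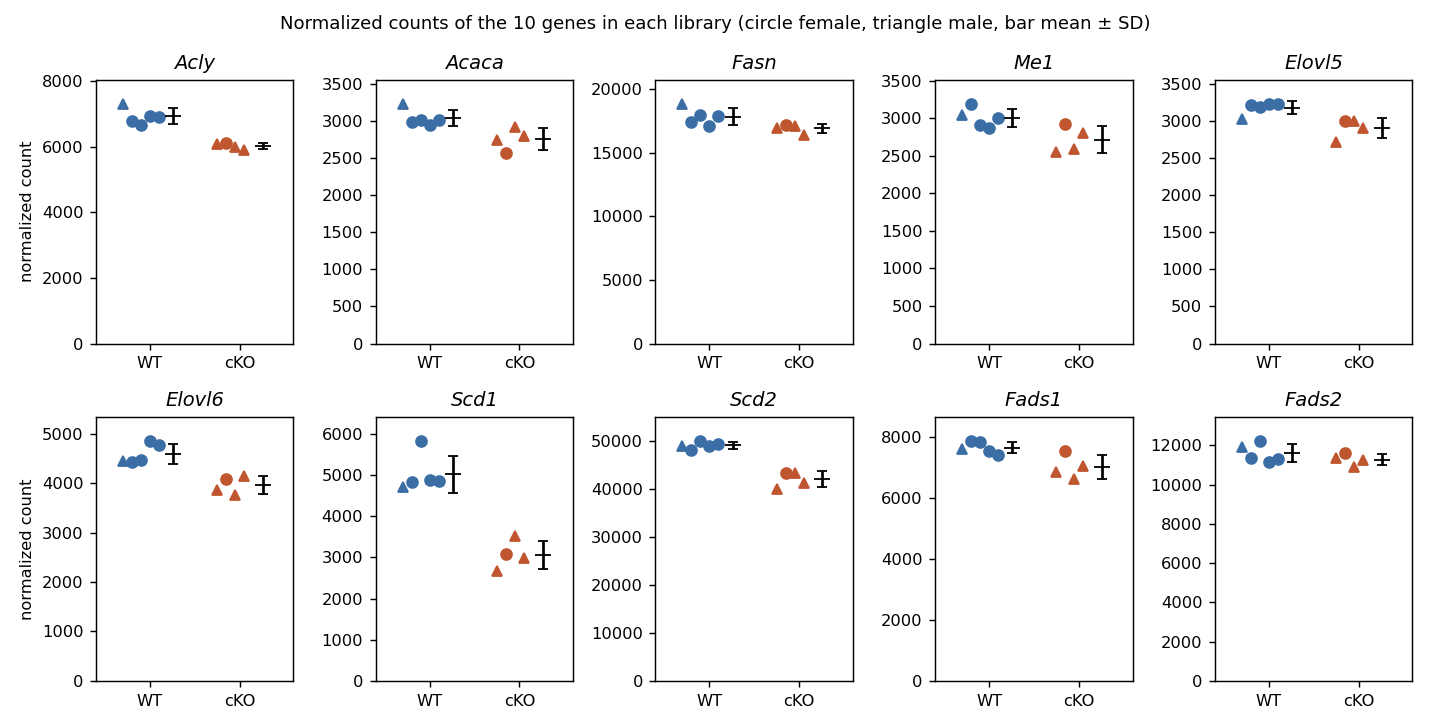
Normalized counts (vertical axis, from 0) of each of the 10 genes in the 5 WT and 4 cKO libraries, with circles for females, triangles for males and a bar for the mean ± SD of each group. Scd1 lies between 2675 and 3516 in cKO and between 4705 and 5824 in WT, the widest separation relative to its level, while the groups of Fasn, Me1, Fads1 and Fads2 overlap.

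Among the genes that supply and use acetyl-CoA, Acly was lower in cKO. Acly (ENSMUSG00000020917, chromosome 11, 100367178 to 100418826, GRCm39) encodes ATP citrate lyase, which splits cytosolic citrate into acetyl-CoA and oxaloacetate. It measured 7309.7, 6791, 6653, 6936 and 6919 normalized counts in WT replicates 1 to 5 and 6069.6, 6102, 6004 and 5898 in cKO replicates 1 to 4. The 4 cKO values were tightly grouped and lay below all 5 WT values, of which the only WT male was the highest. The cKO mean was 6018 ± 89.9 (SD, n = 4) against 6922 ± 245 (SD, n = 5) for WT. The fitted log2 fold change was -0.22 ± 0.04 (SE), a level 1.17-fold lower, with a limma adjusted p of 0.0354.

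Acaca (ENSMUSG00000020532, chromosome 11, 84020497 to 84292477) encodes acetyl-CoA carboxylase alpha, which makes the malonyl-CoA used for synthesis and elongation. Its normalized counts were 3231, 2988, 3013, 2947 and 3014 in WT replicates 1 to 5 and 2747, 2561, 2915 and 2792 in cKO replicates 1 to 4. The highest cKO value lay just under the lowest WT value, and the cKO female was the lowest of all libraries. The cKO mean was 2754 ± 147 (SD, n = 4) and the WT mean 3039 ± 111 (SD, n = 5). Acaca differed by -0.21 ± 0.04 (log2, SE), 1.16-fold lower, with a limma adjusted p of 0.042. Without the sex term it was -0.14 and was not called (limma adjusted p = 0.125).

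Fasn (ENSMUSG00000025153, chromosome 11, 120696671 to 120715373) encodes fatty acid synthase, the multifunctional enzyme that builds palmitate. WT replicates 1 to 5 held 18859.7, 17413, 17983, 17069 and 17893 normalized counts and cKO replicates 1 to 4 held 16978, 17176, 17124 and 16408. The groups overlapped, since cKO replicates 2 and 3 lay above WT replicate 4. With means of 16921 ± 353 (SD, n = 4) for cKO and 17844 ± 678 (SD, n = 5) for WT, the log2 fold change of -0.10 ± 0.04 (SE) was not called.

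Me1 (ENSMUSG00000032418, chromosome 9, 86463423 to 86578006) encodes the cytosolic malic enzyme, a source of NADPH for synthesis. It measured 3037, 3193, 2907, 2876 and 3000.1 normalized counts in WT replicates 1 to 5 and 2545, 2920.2, 2585 and 2801 in cKO replicates 1 to 4. The groups overlapped through the cKO female, which lay above 2 of the WT females, whereas the 3 cKO males lay below every WT library. Its fitted difference of -0.12 ± 0.06 (log2, SE) was not called (cKO 2713 ± 178, n = 4, and WT 3002 ± 125, n = 5, mean ± SD).

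Both elongase genes had lower cKO values without overlap, and neither was called in the fit with sex as a term. Elovl6 (ENSMUSG00000041220, chromosome 3, 129326003 to 129432144) encodes the elongase that extends palmitate to stearate, the substrate of the stearoyl-CoA desaturases. Its normalized counts were 4459, 4427, 4472, 4853 and 4783 in WT replicates 1 to 5 and 3859, 4079.6, 3762 and 4143 in cKO replicates 1 to 4. WT replicates 4 and 5 stood above the other WT libraries, and every cKO library lay under the lowest of the 5 WT libraries. Group means were 3961 ± 180.2 (SD, n = 4) for cKO and 4599 ± 202 (SD, n = 5) for WT, with a log2 fold change of -0.18 ± 0.05 (SE) and a limma adjusted p of 0.168. Without the sex term Elovl6 was called, at -0.215 (limma adjusted p = 0.0237).

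Elovl5 (ENSMUSG00000032349, chromosome 9, 77824645 to 77891801) encodes an elongase of polyunsaturated fatty acids. It measured 3023, 3212, 3192, 3231 and 3235 normalized counts in WT replicates 1 to 5 and 2717, 3001, 3001 and 2909.9 in cKO replicates 1 to 4. The separation was narrow, since the WT male lay apart from the 4 WT females and only just above the highest cKO libraries. Its difference of -0.09 ± 0.04 (log2, SE) was not called (cKO 2907 ± 134, n = 4, and WT 3179 ± 88.8, n = 5, mean ± SD).

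The stearoyl-CoA desaturases, which put the first double bond into stearate and palmitate, held the largest difference of the 10 genes in the fit of all 9 libraries. Scd1 (ENSMUSG00000037071, chromosome 19, 44382893 to 44396318) is the isoform best known from liver and adipose tissue. It measured 4705, 4829.5, 5824, 4883 and 4845 normalized counts in WT replicates 1 to 5 and 2675, 3071, 3516 and 2986 in cKO replicates 1 to 4. WT replicate 3 stood above 4 WT libraries that differed little from each other, and the highest cKO library lay far below the lowest WT library. The knockouts averaged 3062 ± 347 (SD, n = 4) against 5017 ± 456 (SD, n = 5) for WT. Scd1 had a log2 fold change of -0.68 ± 0.09 (SE), a level 1.60-fold lower, with a limma adjusted p of 0.00374, the 11th smallest of the 17036 genes.

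Scd2 (ENSMUSG00000025203, chromosome 19, 44282112 to 44295303) is the isoform that predominates in brain. Its normalized counts were 48975, 48020.0, 49925, 48984 and 49313 in WT replicates 1 to 5 and 39998, 43288, 43338 and 41255 in cKO replicates 1 to 4. The WT libraries lay within a narrow band, the cKO libraries were more widely spread, and the groups did not overlap. Its means were 41969.9 ± 1634 (SD, n = 4) for cKO and 49043 ± 690.0 (SD, n = 5) for WT. The log2 fold change of -0.21 ± 0.04 (SE), 1.16-fold lower, missed the threshold in limma (adjusted p = 0.0625) and passed it in edgeR (adjusted p = 0.0315) and in DESeq2 (adjusted p = 0.000142).

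Scd1 and Scd2 are close copies, and with Scd3 and Scd4 they form a cluster on chromosome 19, so their separation in these counts depends on how reads were assigned. The coding sequences of Scd1 and Scd2 were 90.4% identical over 1068 aligned bases, with a longest identical run of 147 bases. Scd1 and Scd3 were 91.5% identical, with a longest run of 185 bases. Scd3 and Scd4 were far less abundant: in normalized counts (mean ± SD), Scd3 measured 41.7 ± 13.7 in the 4 cKO libraries and 32.7 ± 3.07 in the 5 WT libraries, and Scd4 14.3 ± 4.24 and 10.6 ± 3.04. Neither was called in limma, with log2 fold changes of 0.04 ± 0.24 (SE) for Scd3 and 0.44 ± 0.36 (SE) for Scd4. A stretch of 90 coding bases, from the mouse GENCODE M21 transcripts (GRCm38 gene models, mRNA sense), is shown because it holds both bases that tell the copies apart and runs that they share. Capitals mark the bases that differ from Scd1.
Scd1: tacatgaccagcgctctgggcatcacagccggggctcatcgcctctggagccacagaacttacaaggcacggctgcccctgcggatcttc
Scd2: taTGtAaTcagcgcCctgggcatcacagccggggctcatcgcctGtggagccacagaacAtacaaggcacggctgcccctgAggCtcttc
Scd3: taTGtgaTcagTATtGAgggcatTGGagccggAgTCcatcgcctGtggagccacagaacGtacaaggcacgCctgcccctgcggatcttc
Scd4: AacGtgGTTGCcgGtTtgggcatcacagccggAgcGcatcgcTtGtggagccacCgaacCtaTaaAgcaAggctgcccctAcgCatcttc
The stretch covers coding bases 310 to 399 of Scd1, 319 to 408 of Scd2, 322 to 411 of Scd3 and 304 to 393 of Scd4. It holds 9 differing bases in Scd2, 17 in Scd3 and 20 in Scd4. A read that falls within a shared run could belong to more than 1 copy, and no source used here names the read counter.

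The polyunsaturated fatty acid desaturases were not called in any fit named here. Fads1 (ENSMUSG00000010663, chromosome 19, 10160251 to 10174241) encodes the desaturase of the later step towards arachidonate. It measured 7607, 7873, 7838, 7538 and 7430.4 normalized counts in WT replicates 1 to 5 and 6843, 7548, 6630.4 and 7049 in cKO replicates 1 to 4. The cKO female lay within the WT range and the 3 cKO males below it. The log2 fold change was -0.09 ± 0.04 (SE) and was not called (cKO 7018 ± 393, n = 4, and WT 7657 ± 192, n = 5, mean ± SD).

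Fads2 (ENSMUSG00000024665, chromosome 19, 10040128 to 10079110) encodes the desaturase of the entry step of that pathway. Its normalized counts were 11943, 11355, 12221, 11172 and 11300.5 in WT replicates 1 to 5 and 11344, 11618, 10884 and 11275 in cKO replicates 1 to 4. The groups overlapped broadly. The log2 fold change was -0.04 ± 0.04 (SE) and was not called (cKO 11280.0 ± 303, n = 4, and WT 11598 ± 457, n = 5, mean ± SD). Fads1 and Fads2 shared 67.7% of their aligned coding bases, with a longest identical run of 17 bases, and Elovl5 and Elovl6 shared 60.8%, with a longest run of 10 bases.

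Which genes were called depended on the test. Without the sex term the calls were Scd1, Scd2, Acly and Elovl6, 4 of the 10, where 0.939% of all genes tested were called lower. With edgeR on the recovered reads they were Scd1, Scd2 and Acly, 3 of the 10, against 0.205%. With DESeq2 on the same reads they were Scd1, Scd2, Acaca and Acly, 4 of the 10, against 0.775%. Scd1 and Acly were called by each of these 3 fits and by limma with the sex term, and Fasn, Me1, Elovl5, Fads1 and Fads2 by none of the 4. Before adjustment, limma with the sex term gave a p under 0.05 for Fasn beside Scd1, Scd2, Acaca, Acly and Elovl6.

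**Figure D2:**
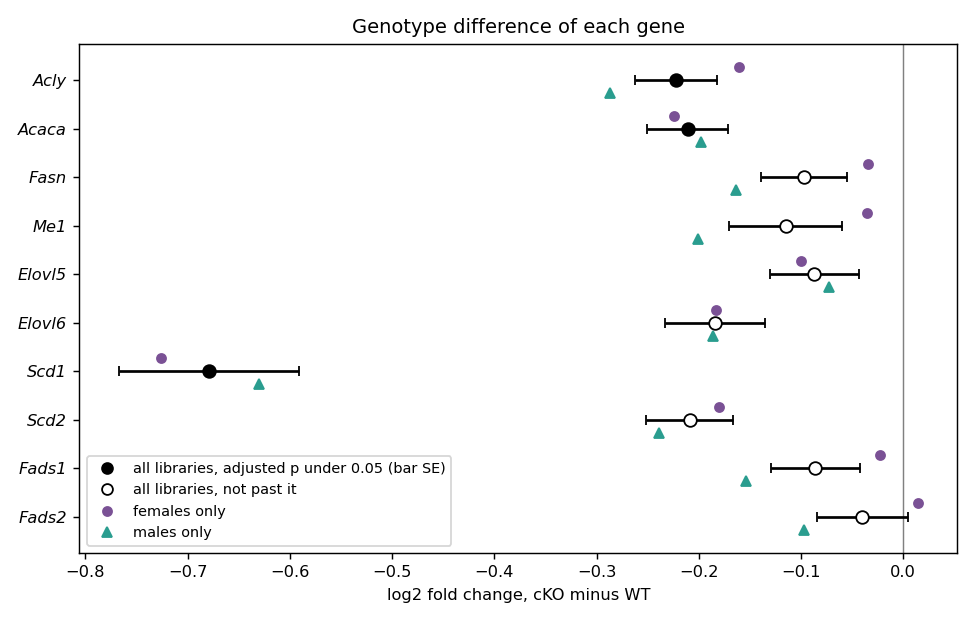
Log2 fold change of each of the 10 genes, cKO minus WT (horizontal axis), from the fit of all 9 libraries with sex as a term (black, bar SE, filled where the adjusted p was under 0.05) and from females alone and males alone. Scd1 lies between -0.73 and -0.63 in all 3 fits, and Fads2 lies at 0.01 in females.

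Sex was split unevenly between the genotypes, so each difference was also taken within a sex, as values with no replicate on one side. Among females (1 cKO and 4 WT) the log2 fold change was -0.73 for Scd1, -0.22 for Acaca, -0.18 for Elovl6 and Scd2, and -0.16 for Acly. Among males (3 cKO and 1 WT) it was -0.63 for Scd1, -0.29 for Acly, -0.24 for Scd2, -0.20 for Acaca and Me1, and -0.19 for Elovl6. The differences of Fasn (-0.03 and -0.16), Me1 (-0.035 and -0.20), Fads1 (-0.02 and -0.15) and Fads2 (0.01 and -0.10) were nearer 0 in females than in males. The interaction of sex and genotype rests on 1 cKO female and 1 WT male and carries little information. Its unadjusted limma p ran from 0.105 for Acly (-0.13 ± 0.07, SE) to 0.969 for Elovl6 (0.00 ± 0.10, SE), which does not show that the genotype difference is alike in the sexes.

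The comparison of males with females, which did not choose the genes, gave no call among them. In the same limma fit, 0 of the 10 genes were called. An unadjusted p under 0.05 was met by 1 of them, and the share of all genes that met it was not counted for this comparison. edgeR and DESeq2 also called 0 of the 10. Over all genes tested, limma called 9 in either direction, which is 0.0528%. At so low a share, 0 calls among 10 genes carries little information. The median log2 difference, male minus female, was -0.04 for the 10 genes, with 4 above 0 and 6 below, and 0.00 over all genes. Acaca had the largest of these differences, at 0.12 ± 0.04 (SE, unadjusted p = 0.00807, limma adjusted p = 0.684), with the WT male the highest of the WT libraries and 3 cKO males above the cKO female. Elovl5 followed, at -0.08 ± 0.04 (SE), and Fads2 lay at 0.00 ± 0.04 (SE).

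The cKO female, replicate 2, was the highest of the cKO libraries for 6 of the 10 genes and lay above the cKO mean for 9 of them. How often it was the highest over all genes was not counted. Over all genes tested it differed most from the other cKO libraries, with a chi-square per gene of 11.98 to 12.96. Pairs of the other cKO libraries had 7.81 to 8.36. The exception to its place above the cKO mean was Acaca, where replicate 2 was the lowest. cKO replicate 1 was the lowest for 4 genes and the highest for 0. Among the WT libraries no replicate was the highest for more than 3 genes. The coefficient of variation over replicates was largest for Scd1, at 11.3% in cKO and 9.1% in WT, and smallest for Acly in cKO, at 1.5%, and for Scd2 in WT, at 1.4%.

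**Figure D3:**
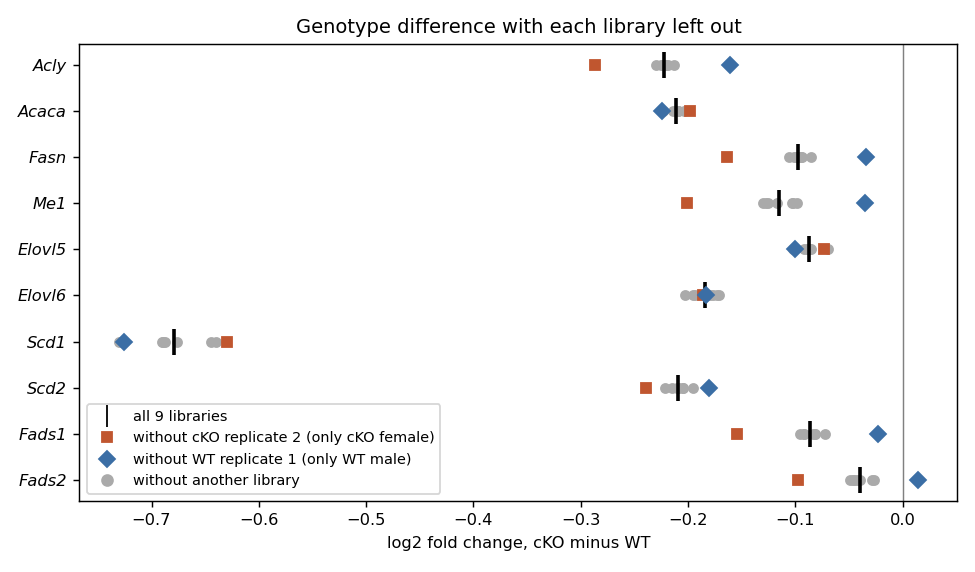
Log2 fold change of each gene, cKO minus WT (horizontal axis), in the fit of all 9 libraries (black line) and with 1 library left out at a time (grey points, with the only cKO female as a red square and the only WT male as a blue diamond). Leaving out either of these moves Acly, Fasn, Me1, Fads1 and Fads2 most, and Fads2 reaches 0.01 without the WT male.

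With each library left out in turn, the log2 fold change of Scd1 stayed between -0.73 and -0.63 and Scd1 was called in 7 of 9 fits. It was not called without cKO replicate 2 (limma adjusted p = 0.127) or without WT replicate 1 (limma adjusted p = 0.0516). With sex as a term, these fits give the male and the female differences above: each sets 1 library against the others of its sex, and the spread is taken from the remaining libraries, so they are no separate check. Acly ranged from -0.29 to -0.16 and was called in 2 of 9 fits, those without cKO replicate 4 and without WT replicate 3. Acaca ranged from -0.22 to -0.20 and was called in 1 of 9, that without cKO replicate 3. Scd2 ranged from -0.24 to -0.18 and was called in 0 of 9. For 9 of the 10 genes the sign was the same in each of the 9 fits, and for Fads2 it was in 8.

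Levels were set in order per kilobase of exon, with exon lengths from GENCODE M21. Scd2 stood first in WT, at 8976 ± 126.3 normalized counts per kb (SD, n = 5), above Fads2 at 3520.0 ± 138.7. Fasn (1630.0 ± 61.9) and Fads1 (1591 ± 39.9) followed with overlapping ranges, then Acly at 1311 ± 46.4, Scd1 at 1026 ± 93.2 and Elovl5 at 902.5 ± 25.2. Me1 (780.2 ± 32.5) and Elovl6 (715 ± 31.5) also overlapped, and Acaca was last at 178 ± 6.5. Scd2 was thus the most abundant of the 10 genes by length in these hippocampi, and Acaca the least.

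In cKO the order was the same except for Scd1, which was sixth in WT and eighth in cKO. There Scd1 lay at 626 ± 71.0 normalized counts per kb (SD, n = 4), below Elovl5 (825.5 ± 38.1) and with a range that overlapped those of Me1 (705 ± 46.3) and Elovl6 (616 ± 28.0). Scd2 remained the highest in cKO, at 7681 ± 299, and Acaca the lowest, at 161 ± 8.6. The level of Scd1 per length was 10.7%, 11.2%, 13.0%, 11.1% and 11.0% of that of Scd2 in WT replicates 1 to 5 and 7.47%, 7.92%, 9.06% and 8.08% in cKO replicates 1 to 4. The share was lower in every cKO library than in any WT library, with means of 8.13% ± 0.67 (SD, n = 4) and 11.4% ± 0.92 (SD, n = 5). For the other pairs of related enzymes the ranges overlapped: Fads1 was 42.6% ± 1.42 of Fads2 in cKO and 45.25% ± 1.61 in WT, and Elovl6 was 74.7% ± 4.36 of Elovl5 in cKO and 79.2% ± 2.96 in WT. Acaca was 10.4% ± 0.64 of Fasn in cKO and 10.9% ± 0.14 in WT, also with overlapping ranges.

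**Figure D4:**
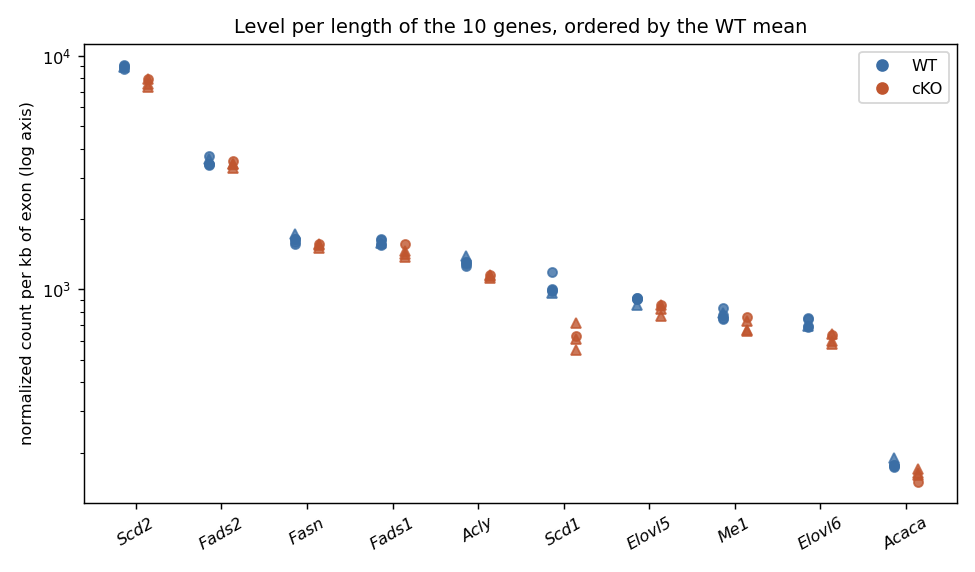
Normalized count per kilobase of exon (vertical log axis) of the 10 genes in each library, ordered by the WT mean, with WT in blue, cKO in red, circles for females and triangles for males. Scd2 is highest at 8976 in WT and 7681 in cKO, and Scd1 lies at 1026 in WT, above Elovl5, and at 626 in cKO, near Elovl6.

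The genes whose pattern over the 9 libraries was most like that of Scd1 were searched among 13912 genes with a mean of at least 50 normalized counts, by the root mean square difference of log2 values centred on each gene's own mean. Dio2, which encodes a deiodinase that activates thyroid hormone, was nearest at 0.14, with 3079 to 3496 normalized counts in WT and 2127 to 2517 in cKO. Grap (0.15), Rgcc (0.16), the BMP antagonist gene Chrdl1 (0.16) and the potassium channel gene Kcnj10 (0.16) followed. Of the other 9 fatty acid genes Scd2 was nearest, at 0.26 and rank 131, followed by Elovl6 at 0.29 and rank 338 and Acly at 0.29 and rank 385. Fads2 was farthest, at 0.36 and rank 3833. The measure mostly reads the size of the genotype difference, which is larger for Scd1 than for the other fatty acid genes, and it is a description of these libraries.

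The RefSeq promoter table used (GRCm38.p6) had entries for 7 of the 10 genes. The 250 bases before the start given by each entry were searched on both strands. Scd1, Scd2 and Fads1 had no entry. Acly, which was called lower, and Fasn, which was not, are shown as the synthesis genes with the most GC boxes and the most NF-Y boxes. Capitals mark matches to the GC box GGGCGG, read by Sp1-type factors, in Acly and to the NF-Y box CCAAT in Fasn, in either orientation.
Acly, chr11:100528001-100528250, minus strand: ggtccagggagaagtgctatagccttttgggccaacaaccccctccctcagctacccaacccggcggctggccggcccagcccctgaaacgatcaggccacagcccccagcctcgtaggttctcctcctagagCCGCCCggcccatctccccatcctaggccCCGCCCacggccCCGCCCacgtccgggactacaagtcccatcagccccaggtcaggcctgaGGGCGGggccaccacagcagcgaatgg
Fasn, chr11:120824548-120824797, minus strand: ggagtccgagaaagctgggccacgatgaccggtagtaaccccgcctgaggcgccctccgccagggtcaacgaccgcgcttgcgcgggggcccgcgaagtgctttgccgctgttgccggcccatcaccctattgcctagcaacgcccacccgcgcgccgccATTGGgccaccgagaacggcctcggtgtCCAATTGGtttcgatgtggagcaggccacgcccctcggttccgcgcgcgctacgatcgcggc
Acly held 4 GC boxes and Fasn 3 NF-Y boxes, of which a facing pair shares bases. Over the 32851 promoters of the table, 32.74% held a GC box and 33.85% an NF-Y box in a window of the same length. Elovl5 held 2 NF-Y boxes and 1 E-box CACGTG, which 6.02% of promoters hold. Fads2 held 1 GC box, and the 2 Me1 entries together held 3 GC boxes and 1 NF-Y box. The Acaca and Elovl6 windows matched none of the motifs. The Acaca window (chr11:84195188-84195437, plus strand) lies well inside the gene, which starts at 84020497 on GRCm39. At Acly and Fasn, on the same chromosome, the shift between the builds is smaller than that distance. The window is therefore not at the start of Acaca given in the deposited table. The sterol regulatory element letters TCACNCCAC, held by 1.05% of promoters, were found in none of the windows, which says only that these letters are not there. By limma with the sex term, Acly was called lower and held matches, while Elovl6 was not called and held none. Fasn, Elovl5, Fads2 and Me1 were not called and held matches. The only gene called lower without a match was Acaca, whose window is not at the gene's start, so called and uncalled genes cannot be compared by these motifs.

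Around the 10 genes, 9 lists of lipid metabolism genes were described from the same limma fit, by counts and medians. Over all 17036 genes, 1932 had an unadjusted p under 0.05 in either direction. Among 13 genes for acetyl-CoA and NADPH supply, 0 were called by limma or edgeR and 2 by DESeq2 (Acss2 and Slc25a1), 6 had an unadjusted p under 0.05, and the median was -0.04. Acss2, the cytosolic acetyl-CoA synthetase, lay between 1231 and 1300.4 normalized counts in cKO and between 1462 and 1670.1 in WT, with no overlap and a log2 fold change of -0.27 ± 0.05 (SE, limma adjusted p = 0.0591). Slc25a1, the mitochondrial citrate carrier, lay between 1401 and 1550.2 in cKO and between 1672 and 1872 in WT, at -0.23 ± 0.06 (SE, limma adjusted p = 0.153). Slc25a1 exports the citrate that Acly splits, and Acss2 makes acetyl-CoA from acetate instead. Neither gene's groups overlapped, but both were named as those of smallest p in their list. Of all genes tested, 3.72% had every cKO library below every WT library.

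The other elongation enzymes had 0 of 10 called by limma, edgeR or DESeq2, 1 with an unadjusted p under 0.05 and a median of -0.06, with Hacd3 at -0.10 and Elovl4 at -0.07. The other desaturases and their electron carriers had 0 of 9 called by limma or edgeR, 1 by DESeq2 (Cyb5b), 2 with an unadjusted p under 0.05 and a median of -0.07. Cyb5b, the outer mitochondrial cytochrome b5, measured between 5839 and 5945 normalized counts in cKO and between 6446 and 6608 in WT (log2 fold change -0.15 ± 0.03, SE, limma adjusted p = 0.12). Fads6 lay between 332 and 421 in cKO and between 418 and 488 in WT (-0.34 ± 0.09, SE, limma adjusted p = 0.161), with overlapping ranges. Mitochondrial fatty acid synthesis had 0 of 6 called by limma, edgeR or DESeq2, 0 with an unadjusted p under 0.05 and a median of 0.03, with Ndufab1 and Mcat both at 0.09.

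Among the 22 SREBP, LXR and ChREBP regulators, 0 were called by limma or edgeR and 1 by DESeq2 (Srebf2), 4 had an unadjusted p under 0.05, and the median was 0.00. Srebf2, the SREBP gene most tied to cholesterol synthesis, lay between 7228 and 7939.8 normalized counts in cKO and between 8655 and 9141 in WT (log2 fold change -0.21 ± 0.04, SE, limma adjusted p = 0.0719). Its groups did not overlap, and 3.72% of all genes tested lay below WT in this way. Srebf1, the SREBP gene most tied to fatty acid synthesis, lay between 1099 and 1285 in cKO and between 1001 and 1374 in WT, and its groups overlapped (0.11 ± 0.10, SE, limma adjusted p = 0.691). Insig1, which holds SREBPs in the endoplasmic reticulum, had a log2 fold change of -0.19 ± 0.06 (SE, limma adjusted p = 0.247).

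Lists of genes that take up, store or burn fatty acids had medians between -0.02 and 0.05. Of 17 genes of uptake, binding and activation 0 were called by limma or edgeR and 2 by DESeq2 (Slc27a1 and Dbi, both higher in cKO), with 4 at an unadjusted p under 0.05 and a median of 0.00. Slc27a1, a fatty acid transporter, lay at 0.22 ± 0.05 (SE) and Dbi, the acyl-CoA binding protein, at 0.25 ± 0.07 (SE). Glycerolipid assembly had 0 of 19 called by the 3 tools, 3 at an unadjusted p under 0.05 and a median of -0.02, with Agpat1 at -0.12 and Plin3 at 0.32. Fatty acid oxidation had 0 of 22 called by the 3 tools, 1 at an unadjusted p under 0.05 and a median of 0.05, and 19 of its genes lay above 0, among them Etfdh at 0.13 and Acox3 at 0.15.

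The genes of cholesterol synthesis, like most of the 10 genes, are known SREBP targets, and a part of the SREBPs here was not tested. Cholesterol synthesis had 8 of 22 called lower by limma, where 0.223% of all genes tested were. It had 0 called higher, all 22 below 0 and a median of -0.255. edgeR called 7 of the 22, DESeq2 15 and limma without the sex term 16. These 3 fits called 0.205%, 0.775% and 0.939% of all genes tested lower. With the meningeal or neuron list as a covariate, limma called 0. Among the genes called were Hmgcs1 (-0.31 ± 0.04, SE), Nsdhl (-0.36 ± 0.05) and Stard4 (-0.43 ± 0.06), with limma adjusted p-values of 0.00374, 0.0041 and 0.00642. Of the 10 fatty acid genes, Scd1 had a larger difference than each of these 3 genes and the other 9 a smaller one. The difference between these lists was not tested.

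**Figure D5:**
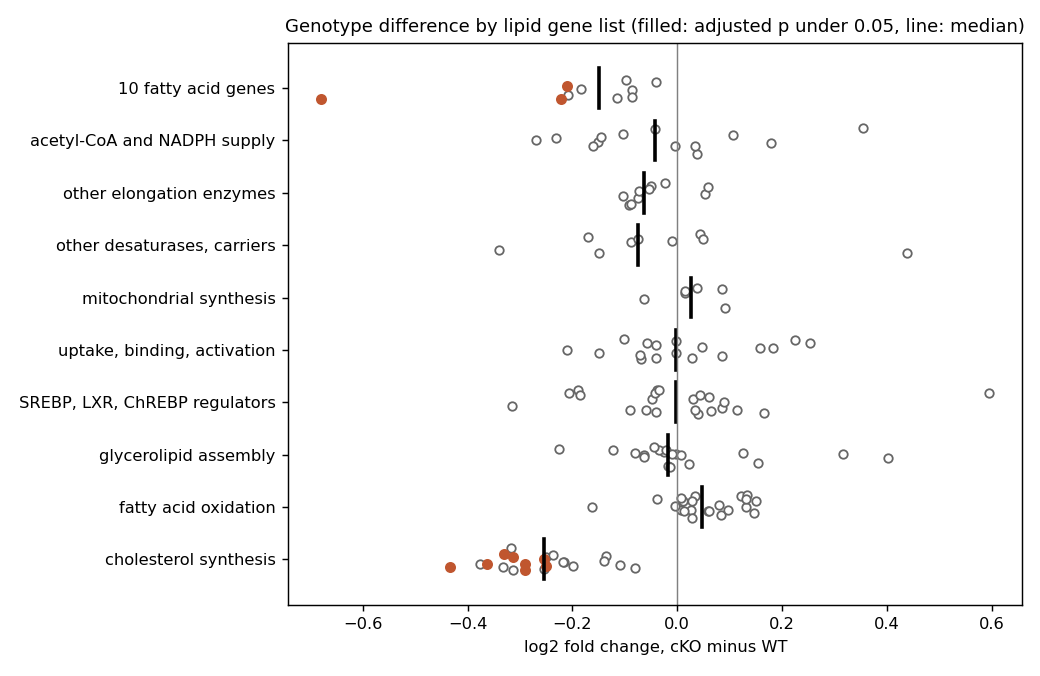
Log2 fold change, cKO minus WT (horizontal axis), of each tested gene of the 10 fatty acid genes and of 9 other lipid gene lists (points, filled where the adjusted p was under 0.05), with a line at the median of each list. The 10 fatty acid genes have a median of -0.15 and cholesterol synthesis one of -0.255, while the other 8 lists lie between -0.07 and 0.05.

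Marker lists of several cell types had lower summed levels in cKO, although no marker of the neuron, oligodendrocyte precursor, microglia or mural cell lists was called by limma. The sums are led by the abundant markers of each list. The normalized total over all genes was also lower in every cKO library than in every WT library, and the sums were not adjusted for it. Summed over the list, 14 of 14 neuron markers passed the minimum and measured 366863 to 381818 normalized counts in cKO and 398061 to 410895 in WT, a difference of the means of -7.0% without overlap. Nefl (-0.15 ± 0.04, SE) and Snap25 (-0.13 ± 0.04, SE) had the smallest p-values of the list. The 12 oligodendrocyte precursor markers summed to between 34071 and 34551 in cKO and between 35172 and 37353 in WT, a difference of -5.6% without overlap, with Pdgfra at -0.17 ± 0.04 (SE) and Gpr17 at -0.19 ± 0.05 (SE). The 12 microglia markers differed by -9.8% without overlap (10389 to 11600.3 in cKO, 11706 to 12322 in WT), while their mean log2 levels overlapped, as did those of the precursor and mural cell lists, with P2ry12 at -0.31 ± 0.07 (SE) and Cx3cr1 at -0.21 ± 0.05 (SE). The 10 mural cell markers differed by -9.2% without overlap (11897 to 13203 in cKO, 13229 to 14912 in WT), with Rgs5 at -0.25 ± 0.06 (SE) and Abcc9 at -0.35 ± 0.11 (SE). The mural list went both ways, with 5 of 10 markers above 0 and a median of 0.00. Its smooth muscle genes Acta2 (0.73 ± 0.28, SE), Tagln (0.61 ± 0.26, SE), Myh11 (0.53 ± 0.21, SE) and Cnn1 (0.92 ± 0.57, SE), named after their values were seen, lay higher in cKO and were not called. All markers of these 4 lists passed the minimum, so none was at 0 throughout.

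The 18 myelin and mature oligodendrocyte markers, from cells known for their lipid synthesis, overlapped between the groups, with sums of 30325 to 43704 normalized counts in cKO and 30389 to 42129 in WT. The summed means differed by -4.7%. In the fit with sex as a term, 16 of the 18 lay above 0 in cKO, with a median of 0.15 and 0 called. All 18 were lower in males, with a median of -0.41 and 0 called. The 2 measures of genotype thus differed in sign, with sex split unevenly. The 16 astrocyte markers differed by -0.7% of their sum and overlapped, but 4 of them were called by limma in opposite directions. Kcnj10 (-0.54 ± 0.04, SE) and Aqp4 (-0.35 ± 0.04, SE) were lower in cKO, and S100b (0.35 ± 0.05, SE) and Gfap (0.29 ± 0.06, SE) were higher. The 14 endothelial markers, of the cell type that carries the deletion, differed by -8.6% of their sum with overlap (10568 to 11564 in cKO, 11524 to 13205 in WT). Flt1 was called lower (-0.34 ± 0.06, SE, limma adjusted p = 0.0417), and Kdr lay at -0.25 ± 0.05 (SE, limma adjusted p = 0.0568). These were the endothelial markers of smallest p, while 5 of the 14 lay above 0 and the median was -0.07. The 14 meningeal fibroblast markers were 37.4% higher in cKO by the mean and overlapped (11880.4 to 16896 in cKO, 7712 to 14116 in WT), with Col1a1 at 0.52 ± 0.12 (SE) and Col3a1 at 0.55 ± 0.13 (SE). Of 10 adipocyte markers 3 passed the minimum (Plin1, Lipe and Thrsp). Among those under it, Lep and Cfd were at 0 in all 9 libraries, and Adipoq, Cidec, Retn, Fabp4 and Plin4 were not.

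With the mean log2 level of a list as a further term, Scd1 differed by -0.67 (log2) for myelin (limma adjusted p = 0.0132), -0.76 for oligodendrocyte precursors (0.0308) and -0.66 for choroid plexus (0.00471). It was -0.72 for meningeal fibroblasts and -0.865 for neurons, and Scd1 was not called in those fits (limma adjusted p = 0.055 and 0.14). The mean log2 level of the neuron list lay between 14.146 and 14.186 in cKO and between 14.204 and 14.26 in WT. As a term it nearly repeats genotype, so that fit cannot separate neuron content from genotype. Acly and Acaca were not called with any of the 5 covariates, while their differences were -0.22 to -0.15 for Acly and -0.23 to -0.20 for Acaca, against -0.22 and -0.21 without one. With the oligodendrocyte precursor covariate Fads1 lay at 0.01 and Fads2 at 0.055, the other 8 genes below 0. The mean log2 levels of the precursor list overlapped only slightly, from 10.737 to 10.852 in cKO and from 10.84 to 10.94 in WT. That fit therefore separates precursor content from genotype poorly. No such fit was run for microglia, mural cells, astrocytes or endothelial cells. The part of any cell type in the results of the 10 genes was not tested.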

How the data were processed

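Total RNA of 9 hippocampi was made into directional libraries at one time, per the labels' protocols. The submitters' processing notes name the GRCm39 build and the tools STAR 2.7.10b, DESeq2 1.41.8, FastQC 0.12.1 and cutadapt 4.4. No source used here names the read counter, annotation release or strand setting, so reads of antisense or overlapping genes cannot be told apart. The deposited signal is a normalized count per gene and library: the authors divided each library's read counts by its size factor and kept 2 decimals. Division by each library's step (0.943 to 1.08) gave whole reads within 0.1 for 100.0% of values. For 3 libraries (cKO 1, WT 1 and WT 4) the step is so near 1 that low values hardly show it. The chi-square per gene between libraries of a group was 3.6 to 12.96, so none was treated as a copy of another.

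From these values, limma-trend (limma 3.58.1, R 4.3.3) was fitted on log2(normalized count + 1) with terms for sex and genotype. It took in the 17036 genes with a mean of 10 or more, with Benjamini-Hochberg adjustment over all of them and a threshold of 0.05. Fold changes are on that scale, which understates those of low genes. edgeR 4.0.16 (quasi-likelihood) and DESeq2 1.42.0 were run on the recovered reads. Other alternatives were pseudocounts of 0.5 and 5, other filters, TMM scaling, robust limma, no sex term, each sex alone, marker list covariates and libraries left out. Scripts were tested on simulated data.

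The 10 genes, the 22 lists (306 entries, 1 not matched), the tests and the naming rule were chosen with earlier results of these data known. The rule named all 10 genes, Slc38a3, up to 4 called genes of smallest p per lipid list or else 2 of smallest unadjusted p, 2 genes of smallest p per marker list that moved with the 10 genes, and the 5 genes most like Scd1. A withheld gene is not reported here, and counts over lists include it. Gene coordinates are those of the deposited table. Exon lengths and coding sequences (longest open reading frame) came from GENCODE M21 and promoters from RefSeq, both on GRCm38. Tables and figures were made in Python 3.11.15 (pandas 2.3.3, matplotlib 3.10.9).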

Additional observations from a re-analysis of the deposited data

Results flagged for a closer look

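In 3 of the 20 groups of values formed by the 10 genes and the 2 genotypes, 1 library lay apart from the rest by Dixon's criterion, which chance alone meets in about 1 of 20 groups. Scd1 was highest in WT replicate 3, at 5823.83 normalized counts, where the gap to the next library was 0.841 of the WT range. Acaca was highest in WT replicate 1, the only WT male, at 3231.04 normalized counts (0.764 of the range). Elovl5 was lowest in the same library, at 3022.62 normalized counts (0.8 of the range). The critical share for 5 libraries is 0.71. Without WT replicate 3 the log2 fold change of Scd1 was -0.645 and Scd1 was still called. Without WT replicate 1 it was -0.224 for Acaca, which was then not called by limma (adjusted p = 0.156), and -0.10 for Elovl5.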

How the results depend on the processing

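The main limits are the uneven split of the sexes, with 1 cKO female and 1 WT male, and differences of under 1.2-fold for each of the 10 genes but Scd1. The log2 fold changes of Scd1 ranged from -0.865 to -0.63 over all alternatives, those of Scd2 from -0.239 to -0.18, and both kept their direction.

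The count of the 10 genes called was 3. It was 1 with no filter on low values, in females alone, with the myelin covariate and without WT replicates 2 and 5, and 0 in males alone and with the meningeal covariate. With covariates added after seeing the data it was 0 for the neuron list, which nearly repeats genotype, and 1 for the oligodendrocyte precursor and choroid plexus lists. Leaving out each library gave 0 to 2, with 0 without cKO replicate 2 or WT replicate 1 and 1 without cKO replicate 1, WT replicate 2, 4 or 5. Acaca also lost its call under TMM scaling (limma adjusted p = 0.0506) and in edgeR (adjusted p = 0.0514), and Scd2 gained one in robust limma (adjusted p = 0.0254). The median of the 10 genes, -0.15, was -0.192 in males alone and -0.192 to -0.131 with each library left out.

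Over all genes, 59 were called, against 216 with no sex term, 11 in females, 3 in males, 200 in DESeq2, 7 with the meningeal covariate, 4 with the neuron and 210 with the oligodendrocyte precursor covariate, 15 without WT replicates 2 and 5, and 10 to 65 with each library left out (10 without cKO replicate 2, 21 without WT replicate 1, and 28, 29 and 30 without cKO replicate 1, WT replicate 2 and WT replicate 5). In the other lipid lists 8 genes were called, against 21 with no sex term and 21 in DESeq2, 3 without WT replicates 2 and 5, 0 in females, in males and with the meningeal or neuron covariate, and 0 to 9 with each library left out (0 without WT replicate 1, 4 without cKO replicate 2 and 5 without WT replicate 2). Between the sexes 9 genes were called, against 24 in DESeq2 and 9 to 16 with each library left out (16 without cKO replicate 4). Fads2 reversed to 0.014 in females alone and without WT replicate 1 (-0.097 to 0.014 with each library left out), and with the oligodendrocyte precursor covariate Fads1 reversed to 0.007 and Fads2 to 0.055. The cause of these changes was not tested. No paired analysis was possible because replicate numbers were given in record order and tie no animal of one group to an animal of the other.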
